A study of Mus musculus with 16 samples.

Results

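The C/EBP family comprised 6 genes here, Cebpa, Cebpb, Cebpd, Cebpe, Cebpg and Cebpz, which were taken by name from the gene symbols matched to the deposited Entrez numbers. All 6 listed members were found among the 13652 genes of the count tables, and all 6 were tested. The cells were AML246, a mouse acute myeloid leukaemia line grown in IMDM with 10% FCS and IL-3. By its title, the series restores and then again knocks down PU.1, which Spi1 encodes and which directs myeloid development. Doxycycline at 0.1 µg/mL was added on day 0 and taken away on day 12.

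The 16 libraries formed 8 groups of 2 replicates, A and B. Untreated cells were sampled at day 0. Cells on doxycycline were sampled at days 4, 8 and 12. Cells off doxycycline were sampled 4, 8 and 12 days after withdrawal, which are days 16, 20 and 24 of the course. These 7 groups were sorted as total viable cells, and the remaining group was sorted at day 12 as Cd11b-high viable cells. All groups came from the same line, so no second leukaemia and no untreated cells of later days are compared here.

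C/EBP proteins are basic leucine zipper (bZIP) transcription factors that bind DNA as homodimers or as heterodimers with each other and with other bZIP proteins. C/EBPα, the product of Cebpa, is required for the step from myeloid progenitor to granulocyte and monocyte precursor, and it works beside PU.1 at many myeloid genes. C/EBPε, from Cebpe, acts later and drives the secondary granule genes of neutrophils and genes of eosinophils. C/EBPβ and C/EBPδ, from Cebpb and Cebpd, are known for emergency granulopoiesis and inflammatory gene expression. C/EBPγ, from Cebpg, lacks the activation domains of the others and acts through its partners, among them ATF4. Cebpz shares the family's name but encodes a nucleolar protein without the bZIP domain.

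Cebpg and Cebpa are neighbours on chromosome 7 of GRCm38.p6, at 35046422 to 35056566 on the minus strand and 35119293 to 35121928 on the plus strand, with 62726 bases between them. Their promoters are shown because the pair shares a locus and followed different courses here. The promoter table, from RefSeq, matched 3 of the 6 members (Cebpa, Cebpb and Cebpg). Each line gives the 250 bases before the gene's start, 5′ to 3′ on the gene's strand, at chr7:35056567-35056816 for Cebpg and chr7:35119043-35119292 for Cebpa. Capitals mark matches to any of the motifs searched.

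Cebpg: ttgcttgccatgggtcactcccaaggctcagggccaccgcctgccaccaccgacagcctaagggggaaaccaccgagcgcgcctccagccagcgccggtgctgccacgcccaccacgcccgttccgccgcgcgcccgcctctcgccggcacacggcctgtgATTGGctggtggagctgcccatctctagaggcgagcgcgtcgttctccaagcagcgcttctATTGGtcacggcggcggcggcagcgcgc

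Cebpa: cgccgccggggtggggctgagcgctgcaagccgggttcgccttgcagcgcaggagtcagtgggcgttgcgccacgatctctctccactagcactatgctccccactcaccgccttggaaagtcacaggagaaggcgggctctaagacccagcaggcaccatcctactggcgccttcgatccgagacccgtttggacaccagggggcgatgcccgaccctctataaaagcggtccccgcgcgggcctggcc

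The motifs were searched on both strands and do not overlap in these 2 windows. They were the PU.1 core GAGGAA, the C/EBP site TTGCNNAA, the ATF4-C/EBP element TGATGNAA, the CRE core TGACG, the CCAAT box, the E-box CACGTG and the GC box GGGCGG. The Cebpg window held CCAAT in reverse orientation from base -89 to -85 and from -28 to -24, counted from the gene's start, and 33.85% of 32851 promoter windows of the same length hold a CCAAT box. None of the 7 motifs matched in the Cebpa window, where 23.25% of windows hold the PU.1 core and 9.56% the C/EBP site. The Cebpb window held the CRE core at 3 positions and the GC box at 5, motifs that 17.77% and 32.74% of windows hold. A match is a description of letters, and binding was not measured.

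Levels are given in CPM, read counts scaled to TMM-adjusted library size, with n = 2 libraries a group. Folds and adjusted p-values come from 1 edgeR fit of all libraries. Total counts ran from 12962801 to 26509803 per library. Spi1 stood at 66.3 and 56.8 CPM at day 0, between 186 and 248 CPM in every library on doxycycline, and between 37.2 and 65.0 CPM after withdrawal. At day 4 the Spi1 mean was 3.87-fold that of day 0 (edgeR adjusted p = 6.8e-08, log2 fold 1.95, SE 0.15), which matches the labels. The replicates 12 days off differed most across all genes, with a chi-square of 71.4 per degree of freedom against 2.90 to 18.5 in the other groups. Counts of mitochondrial genes made up 7.36% and 6.35% of the day 0 libraries and 2.01% to 3.59% of the others. In bulk libraries, fewer cells of a type and less RNA per cell cannot be told apart.

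Cebpe was the dominant family transcript in every library. Divided by gene length, so that genes can be compared, Cebpe ranged from 298 to 491 CPM per kb, and it made up 67.3% to 75.5% of the summed per-length level of the 6 genes. Cebpb was second in all 16 libraries with 60.2 to 107 CPM per kb. Cebpa ranged from 21.3 to 46.1 CPM per kb, Cebpz from 22.7 to 36.5, Cebpg from 13.0 to 21.3 and Cebpd from 5.85 to 31.3. The libraries of Cebpe and Cebpb did not overlap in any group. Cebpa and Cebpz overlapped at days 0, 4 and 12, so their order there is not beyond the spread. Cebpd ranked above Cebpa, Cebpz and Cebpg at day 4, with 30.7 CPM per kb on average, and last from day 12 on, with no overlap with its neighbour in that order.

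**Figure D1:**
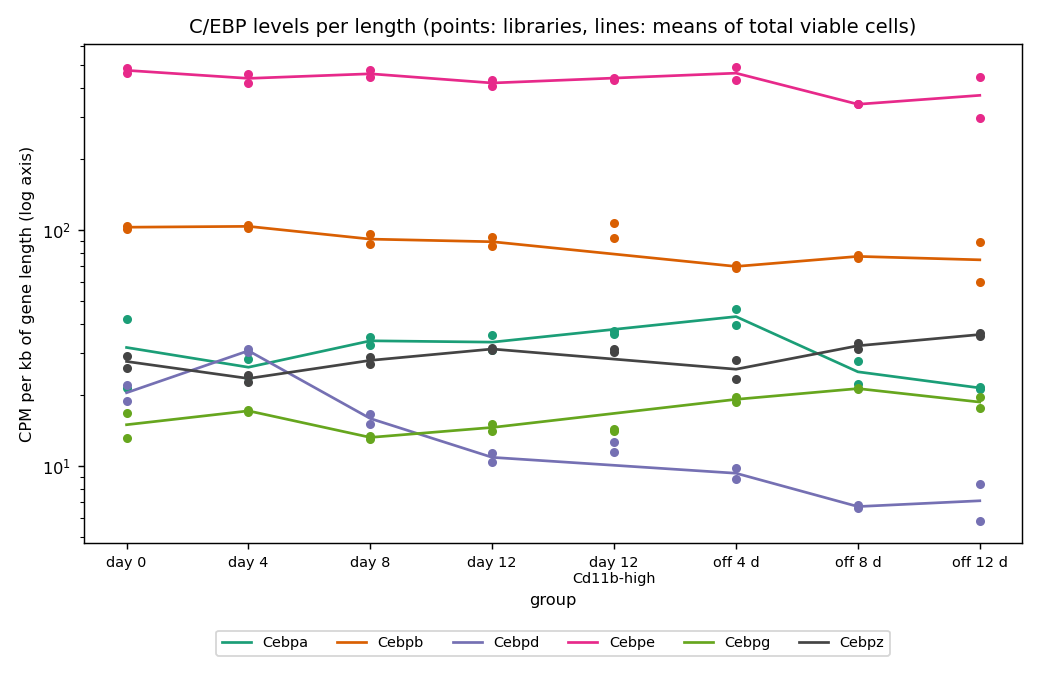
Per-length level of each C/EBP gene (CPM per kb, log axis) in the 8 groups, with points for the libraries and lines through the means of total viable cells. Cebpe lies above all others at 298 to 491 CPM per kb, and Cebpd drops from 30.7 CPM per kb at day 4 to the lowest line from day 12 on.

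Few members changed on doxycycline. At day 4 against day 0, edgeR called 1 of 6 members, Cebpd, where 59.2% of all genes tested were called in either direction, 28.2% higher and 31.0% lower. At day 8 it called 1 of 6, Cebpd, against 57.3% of all genes. Day 12 gave 1 of 6 again, Cebpd, against 63.4% of all genes (30.0% higher, 33.4% lower). The largest log2 fold among the 6 at day 12 was that of Cebpd at -0.91, and the median over all 13652 genes of the unsigned log2 fold was 0.62. The next steps on the drug, with their own shares of calls, were day 8 against day 4 (2 of 6, Cebpd and Cebpg, against 13.9% of genes) and day 12 against day 8 (0 of 6 against 2.24%). In that last step 1 member had an unadjusted edgeR p under 0.05, DESeq2 called 1 and limma-voom 0.

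Members were called both higher and lower after withdrawal. Against day 12, edgeR called 2 of 6 at 4 days off (Cebpg and Cebpz, 36.8% of all genes, 18.0% higher and 18.8% lower), 2 at 8 days off (Cebpd and Cebpg, 55.9%) and 3 at 12 days off (Cebpa, Cebpd and Cebpg, 65.3%, 32.9% higher and 32.4% lower). With 6 members such shares are coarse, here and in the comparisons below, and at 4 days off the share was close to that of all genes. Differences from the share of all genes were not tested. Against day 0, it called 3 of 6 at 4 days off (37.9% of all genes), 4 at 8 days off (33.1%) and 4 at 12 days off (43.6%, 21.6% higher and 22.0% lower). From 4 to 8 days off 4 of 6 were called (Cebpa, Cebpd, Cebpe and Cebpz) against 24.0% of all genes. Of these, Cebpd (log2 fold -0.47, edgeR adjusted p = 0.034) was not called without any 1 of the 4 libraries (0.065 to 0.18). From 8 to 12 days off edgeR called 0 of 6 against 3.71%, with 0 at an unadjusted edgeR p under 0.05 and 0 by DESeq2 or limma-voom. The comparisons against day 0 share the day 0 libraries and those against day 12 share the day 12 libraries.

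**Figure D2:**
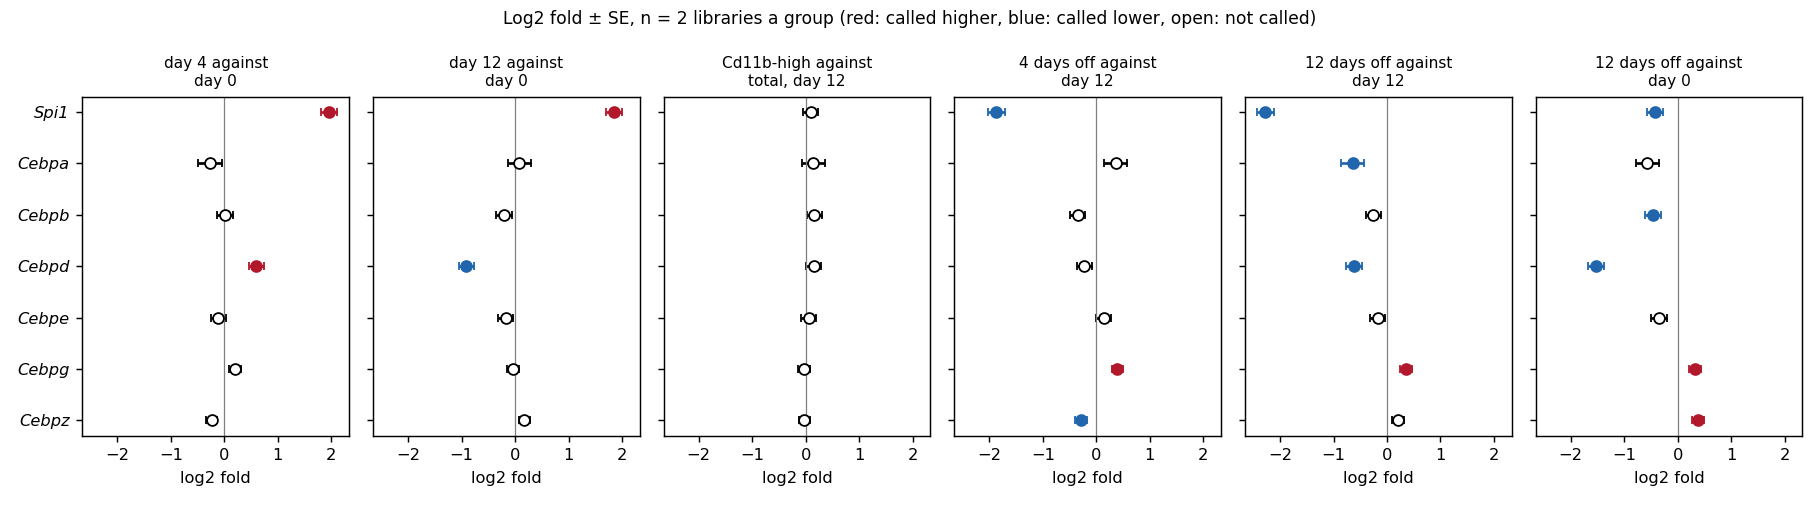
Log2 fold with its SE for Spi1 and the 6 C/EBP genes in the 6 main comparisons, with 2 libraries a group. Spi1 stands near 1.95 at day 4 and 1.85 at day 12, while among the C/EBP genes only Cebpd is called in either comparison.

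Cebpe, the late granulocyte factor, was abundant before PU.1 was restored and was not called at any time on doxycycline. Cebpe (Entrez 110794, chromosome 14, 54710363 to 54712174) stood at 601 and 572 CPM at day 0, at 566 and 519.7 at day 4, at 586 and 549 at day 8, and at 505 and 533 at day 12. The day 12 libraries lay below both day 0 libraries by a small margin, and the log2 fold of -0.18 (SE 0.14, edgeR adjusted p = 0.29) had a 95% interval from -0.48 to 0.13. Sorted Cd11b-high cells gave 536 and 544 CPM. After withdrawal it stood at 608 and 534 CPM at 4 days, 422 and 421 at 8 days, and 551 and 369 at 12 days. The 8-day libraries were thus the lowest pair, and the 12-day pair was spread over most of the range of the course.

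The fall of Cebpe at 8 days off passed the test against day 0 (log2 fold -0.48, SE 0.14, edgeR adjusted p = 0.019) and against 4 days off (-0.44, SE 0.14, edgeR adjusted p = 0.038). Against day 12 it did not (-0.30, SE 0.14, edgeR adjusted p = 0.089), though a fit of the 4 libraries alone called it (7.9e-05). Both calls were lost on leaving out any 1 of the 4 libraries compared, with edgeR adjusted p from 0.054 to 0.10 in the first and from 0.058 to 0.21 in the second. At 12 days off the log2 fold against day 0 was -0.35 (edgeR adjusted p = 0.060), and it ran from -0.67 (0.00013) without replicate A of that time to -0.01 (0.93) without replicate B. It was called with a replicate block (0.034), by limma-voom (0.043) and with library size alone (0.038). Its highest group mean was 1.39-fold the lowest, a ratio below which lay 13.1% of the 9407 genes averaging 10 CPM or more.

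Cebpa, the factor of the early granulocyte and monocyte step, was not called at any doxycycline time. Cebpa (Entrez 12606) stood at 56.5 CPM in replicate A and 111 CPM in replicate B of day 0, the widest ratio between replicates of any member in any group. It was at 63.0 and 74.9 CPM at day 4, at 85.6 and 92.9 at day 8, and at 94.6 and 81.6 at day 12. All 6 libraries on doxycycline from total cells therefore lay within the range of the day 0 pair. The day 12 log2 fold was 0.08 (SE 0.22, edgeR adjusted p = 0.76), with a 95% interval from -0.39 to 0.55. It was 0.64 (edgeR adjusted p = 0.0055) without day 0 replicate B and -0.33 (0.095) without day 0 replicate A. At day 4 the log2 fold of -0.27 (edgeR adjusted p = 0.30) became 0.29 (0.16) and -0.68 (0.0032) in the same way, so the direction itself turned on which day 0 library was kept. The same 2 day 0 libraries differed in eosinophil markers, whose 10 measured genes summed to 5226 CPM in A and 2095 CPM in B, and the part of this in the Cebpa gap was not tested.

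After withdrawal Cebpa was highest at 4 days and then fell. It stood at 105 and 121 CPM at 4 days off, 58.7 and 73.2 at 8 days off, and 56.0 and 56.7 at 12 days off. Both 4-day libraries lay above both day 12 libraries, but the log2 fold of 0.36 (SE 0.22) did not pass the test (edgeR adjusted p = 0.21). From 4 to 8 days off it fell by 0.78 on the log2 scale (SE 0.22, edgeR adjusted p = 0.021), and at 12 days off it was 1.56-fold below day 12 (edgeR adjusted p = 0.019, log2 fold -0.64, SE 0.22). The first call was lost without 4 days off replicate B (0.12) or 8 days off replicate A (0.16), and the second without day 12 replicate A (0.11) or either replicate of 12 days off (0.097 and 0.10), all edgeR adjusted p. Against day 0 at 12 days off the log2 fold was -0.56 (edgeR adjusted p = 0.053), and it ran from -0.97 (0.00064) without day 0 replicate A to -0.0045 (0.99) without day 0 replicate B. It was called with a replicate block (0.039), by DESeq2 (0.048) and with library size alone (0.044).

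**Figure D3:**
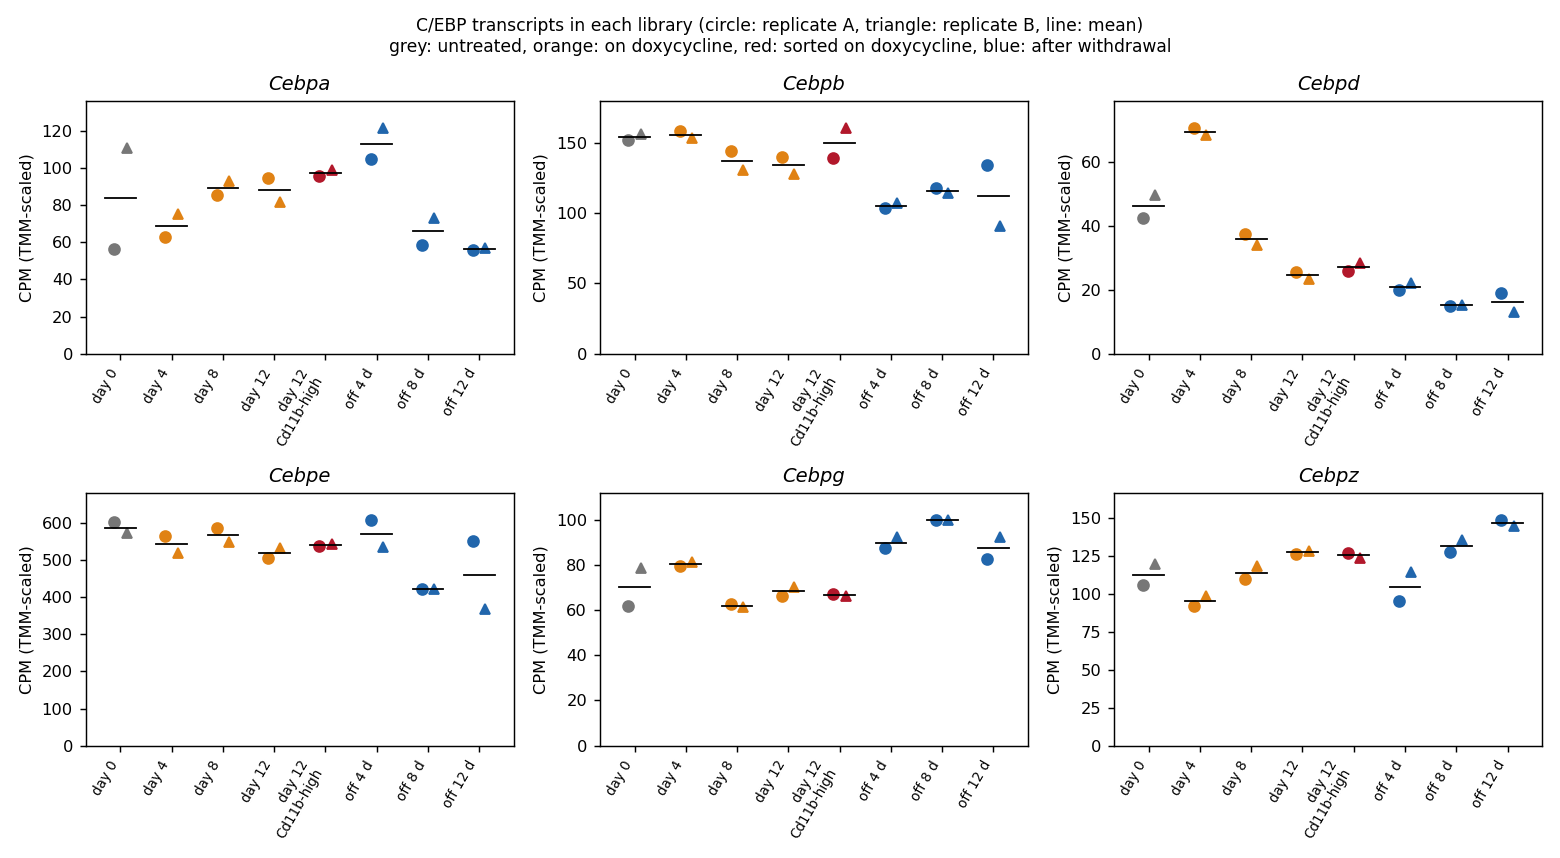
CPM of each C/EBP gene in all 16 libraries, each panel with its own linear axis from 0, circles for replicate A, triangles for replicate B and lines for group means. Cebpd peaks at day 4 at 68.3 and 70.6 CPM and ends at 13.2 and 18.9 CPM, while Cebpe stays between 369 and 608 CPM.

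Cebpd, a factor of acute and inflammatory responses, had the widest range of the family. It was the only member called on doxycycline against day 0. Cebpd (Entrez 12609, chromosome 16, 15887286 to 15889545) stood at 42.6 and 49.6 CPM at day 0 and at 70.6 and 68.3 CPM at day 4. It then fell on the drug to 37.6 and 34.1 CPM at day 8 and to 25.6 and 23.5 CPM at day 12. Both day 4 libraries lay above, and both day 8 and both day 12 libraries below, the day 0 pair. The Cebpd mean at day 4 was 1.51-fold that of day 0 (log2 fold 0.59, SE 0.14, edgeR adjusted p = 0.0020), and at day 12 it lay 1.88-fold under that of day 0 (edgeR adjusted p = 6.2e-05, log2 fold -0.91, SE 0.14). The step from day 4 to day 8 was a fall of 1.94-fold (log2 fold -0.95, SE 0.14, edgeR adjusted p = 0.00051).

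Withdrawal did not bring Cebpd back. It stood at 19.9 and 22.1 CPM at 4 days off, 15.0 and 15.4 at 8 days and 18.9 and 13.2 at 12 days, and all 6 libraries lay below the lowest library on doxycycline. Against day 0 it was 2.19-fold lower at 4 days off (log2 fold -1.13, SE 0.15, edgeR adjusted p = 4.1e-05), 3.03-fold at 8 days (-1.60, SE 0.15, edgeR adjusted p = 3.9e-06) and 2.87-fold at 12 days (-1.52, SE 0.15, edgeR adjusted p = 2.2e-06). Spi1 at 4 days off had a log2 fold of -0.02 against day 0 (edgeR adjusted p = 0.94). Against day 12, Cebpd was lower at 8 days off (log2 fold -0.69, edgeR adjusted p = 0.0011) and at 12 days off (-0.61, edgeR adjusted p = 0.0020), and at 4 days off it stood at -0.22 (edgeR adjusted p = 0.24).

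The ratio of the highest to the lowest Cebpd group mean was 4.57, above that of 93.9% of genes averaging 10 CPM or more, and that of Spi1 was 5.19. The Cebpd calls at day 4, at day 12 and at all 3 withdrawal times against day 0 held under all 11 alternatives of each comparison that changed the fit, including each left-out library. Its lower call at day 8 against day 0 (log2 fold -0.36, edgeR adjusted p = 0.042) did not, with an adjusted p of 0.077 with RLE factors, 0.083 by DESeq2 and 0.068 to 0.25 without day 0 B, day 8 A or day 8 B. The call at 12 days off against day 12 was lost in a fit of those 4 libraries (0.085). The summed CPM of the 10 neutrophil markers was also highest at day 4, at 2244 and 2868 CPM. It was 14.7 to 24.3 CPM at day 0, 618 to 640 CPM at day 12 and 7.12 to 7.39 CPM at 12 days off. S100a9, S100a8 and Lcn2 reached group means of 1378, 813 and 266 CPM, and no other marker of the list exceeded 46.4 CPM (Camp). From day 4 to day 8, 7 of the 10 were called lower and 1 higher, where 13.9% of all genes were called in either direction. The summed CPM of the 10 eosinophil markers went the other way on the drug, with 219 to 260 CPM at day 4 and 8587 to 9581 CPM at day 12. The part of either list in the Cebpd course was not tested.

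Cebpb, the second most abundant member, was not called on doxycycline and was lower after withdrawal. Cebpb (Entrez 12608, chromosome 2, 167688915 to 167690432) stood at 152 and 157 CPM at day 0, 158 and 153 at day 4, 144 and 131 at day 8, and 139.7 and 128 at day 12. The day 4 log2 fold was 0.01 (edgeR adjusted p = 0.95), with a 95% interval from -0.29 to 0.32. At 4 days off it stood at 104 and 107 CPM, at 8 days off at 118 and 114, and at 12 days off at 134 and 90.5. Every withdrawal library lay below every day 0 library. Against day 0 the log2 fold was -0.55 at 4 days off (SE 0.14, edgeR adjusted p = 0.0076), -0.41 at 8 days (edgeR adjusted p = 0.039) and -0.46 at 12 days (edgeR adjusted p = 0.017).

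Of these, the Cebpb call at 4 days off held under all 11 alternatives. The call at 8 days off was lost with RLE factors (edgeR adjusted p = 0.058), with a minimum mean of 1 CPM (0.056) and without any 1 library (0.11 to 0.17), and the call at 12 days off without its replicate B (log2 fold -0.12, edgeR adjusted p = 0.33) or either day 0 library (0.061 and 0.077), and in a fit of the 4 libraries (0.20). Cebpb against day 12 did not pass the test at any withdrawal time, with edgeR adjusted p of 0.069, 0.23 and 0.13. It was called at 4 days off in a fit of the 4 libraries (0.0083) and by DESeq2 (0.049), and at 8 days off in a fit of the 4 libraries (0.0032). The 12-day log2 fold of -0.26 became -0.56 (0.00021) without replicate A of that time and 0.03 (0.79) without replicate B.

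Cebpg, the partner-dependent member, was higher after withdrawal than at day 0 or at day 12. Cebpg (Entrez 12611) stood at 61.7 and 78.7 CPM at day 0, 79.5 and 81.2 at day 4, 62.8 and 61.3 at day 8, and 66.3 and 70.4 at day 12. After withdrawal it stood at 87.6 and 92.3 CPM at 4 days, 100.05 and 99.7 at 8 days, and 82.8 and 92.3 at 12 days. All 6 withdrawal libraries lay above all 10 others. At 8 days off it was 1.46-fold the day 12 mean (log2 fold 0.55, SE 0.11, edgeR adjusted p = 0.00068) and 1.43-fold the day 0 mean (0.51, SE 0.11, edgeR adjusted p = 0.0029). At 4 and 12 days off the log2 folds against day 12 were 0.40 (edgeR adjusted p = 0.012) and 0.36 (edgeR adjusted p = 0.010), and against day 0 they were 0.36 (edgeR adjusted p = 0.020) and 0.32 (edgeR adjusted p = 0.029).

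Both Cebpg calls at 8 days off held under all 11 alternatives. Against day 0, the calls at 4 and 12 days off were lost without day 0 replicate A (edgeR adjusted p = 0.22 and 0.31), the lower of the pair, and the first also without 4 days off replicate B (0.11). Against day 12 they were lost without day 12 replicate A (edgeR adjusted p = 0.10 and 0.081), and the first without 4 days off replicate B (0.060). In a fit of the 4 libraries the 12-day calls were lost (0.29 against day 0 and 0.074 against day 12), the former also with library size alone (0.057). The fall of Cebpg from day 4 to day 8 (log2 fold -0.37, edgeR adjusted p = 0.036) was lost without any 1 of the 4 libraries (0.13 to 0.22).

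Cebpz, the nucleolar protein of the list, was lowest at day 4 and highest at 12 days off. Cebpz (Entrez 12607, chromosome 17, 78919003 to 78937070) stood at 106 and 119.6 CPM at day 0, 92.4 and 98.8 at day 4, 109.9 and 118 at day 8, and 126 and 129 at day 12. It stood at 95.1 and 114 CPM at 4 days off, 127 and 136 at 8 days and 149 and 145 at 12 days. Both 12-day libraries lay above every other library. The log2 fold at 12 days off was 0.38 against day 0 (SE 0.11, edgeR adjusted p = 0.0097). The gene was called lower at 4 days off against day 12 (-0.28, SE 0.11, edgeR adjusted p = 0.048) and higher at 8 than at 4 days off (0.33, SE 0.11, edgeR adjusted p = 0.035).

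Without day 0 replicate A the Cebpz call at 12 days off was lost (edgeR adjusted p = 0.097), as in a fit of the 4 libraries (0.18), and the call at 4 days off was lost with library size alone (0.21) and without any of day 12 A, day 12 B and 4 days off A (0.14 to 0.40). The step from 4 to 8 days off was lost without 4 days off A, 8 days off A or 8 days off B (0.28, 0.092 and 0.19). Cebpz shares 2046 bases of gene body with Cebpzos, which stood at 5.52 to 19.2 CPM, and since the use of strand is not given, reads of the shared stretch cannot be told apart. At 12 days off Cebpzos was also called higher than at day 0 (15.3 against 10.5 CPM, edgeR adjusted p = 0.049). Its libraries overlapped, with 19.2 and 11.45 CPM at 12 days off against 9.40 and 11.51 CPM at day 0. In other comparisons the 2 genes went the same way or apart. At day 4 against day 0 the log2 folds were -0.54 for Cebpzos and -0.24 for Cebpz, and at 12 days off against day 12 they were 1.47 and 0.20. They were -0.91 and 0.18 at day 12 against day 0, and 0.47 and -0.28 at 4 days off against day 12. The part of Cebpzos in the Cebpz result was not tested.

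Cd11b-high cells at day 12 did not differ from total cells in any member by the test. Cebpa stood at 95.8 and 98.6 CPM in the sorted cells, Cebpb at 139 and 161, Cebpd at 25.9 and 28.5, Cebpg at 67.3 and 66.2 and Cebpz at 127 and 124. Here edgeR called 0 of 6 members, with 0 at an unadjusted p under 0.05 and 0 by DESeq2 or limma-voom, and 0.0146% of all genes were called. The largest member difference was that of Cebpb, a log2 fold of 0.16 with a 95% interval from -0.14 to 0.47. Total viable cells also contain Cd11b-high cells.

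The members did not share one course. Over the 8 group means of log2 CPM, Pearson's r was 0.84 between Cebpb and Cebpd, 0.70 between Cebpa and Cebpe, and -0.77 between Cebpd and Cebpz. The neighbours Cebpa and Cebpg gave -0.41. With Spi1, r ran from -0.71 for Cebpg to 0.67 for Cebpb. These are descriptions over 8 points that share libraries and scaling.

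For each member, the 3 genes outside the family with the highest r over the 8 group means are given. They were picked from all genes with a symbol averaging 5 CPM or more, so high values follow from the choice, and no link was tested. Values over the 16 libraries were lower (0.80 for Baiap3 with Cebpa, 0.933 for Ssh3 with Cebpd and 0.694 for Herpud2 with Cebpb). Nearest to Cebpd were Ssh3 (r = 0.997), BC028528 (0.983) and Acbd4 (0.973), each highest at day 4. Nearest to Cebpa were Baiap3 (0.989), Spns2 (0.972) and Mark1 (0.965), each highest at 4 days off and lowest at 12 days off, with Baiap3 running from 22.2 to 98.0 CPM. Cebpe was nearest to Nuf2 (0.977), Sharpin (0.974) and Bcap31 (0.957), and Cebpz to Nfs1 (0.985), Cst7 (0.977) and Zc3h15 (0.972). The closest to Cebpg were Sav1 (0.967), Clcn3 (0.954) and Pkp2 (0.948), and to Cebpb Herpud2 (0.936), Rhob (0.935) and Atp13a2 (0.934).

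Most measured target genes of late granulocytes rose on doxycycline, and most fell after it. Over all genes, 30.0% were called higher and 33.4% lower at day 12 against day 0, and 32.9% and 32.4% at 12 days off against day 12. Of 15 measured C/EBPε targets of secondary granules and mature granulocytes, 14 rose and 0 fell at day 12 against day 0, with a median log2 fold of 3.54 where the median over all genes was -0.07. Lcn2, an iron-withholding granule protein, went from 2.79 to 173 CPM and Padi4, a histone-modifying enzyme of neutrophils, from 22.1 to 142 CPM. At day 4, 12 of the 15 rose and 3 fell (median 4.40), where 28.2% of all genes were called higher and 31.0% lower. S100a8, a calprotectin subunit, stood at 813 CPM at day 4 against 5.74 CPM at day 0. In the same comparisons the log2 fold of Cebpe was -0.18 and -0.11. At 12 days off against day 12, 14 of 15 fell and 0 rose (median -5.35, all genes 0.00), with Lcn2 at 1.84 CPM and S100a9, the other calprotectin subunit, at 0.537 against 367 CPM. The list shares 9 genes with the neutrophil markers given above and 3 with the eosinophil markers (Epx, Prg2 and Prg3), so it is not separate from those markers. It named 20 genes, of which 15 were measured. Every deposited gene exceeded 0.5 CPM in at least 3 libraries, so genes low in all groups could not enter these counts and medians. Ltf, Camp, Ngp and Mmp8 had lowest group means of 0.023 to 0.049 CPM and highest group means of 5.44 to 46.4 CPM. All 10 neutrophil markers were called higher at day 4. The eosinophil markers summed to 219 and 260 CPM at day 4 against 5226 and 2095 CPM at day 0.

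The C/EBPα targets of progenitors mostly rose at day 4 and split at day 12. Of 15 measured, among them Cebpe itself, 11 rose and 3 fell at day 4 against day 0 (median 0.79). In that comparison 28.2% of all genes were called higher and 31.0% lower. At day 12 against day 0, 8 rose and 5 fell (median 0.30), where 30.0% of all genes were called higher and 33.4% lower. Mpo, myeloperoxidase of azurophil granules, went from 601 to 30.3 CPM, while Igsf6, an immunoglobulin-like receptor, went from 0.899 to 42.3 CPM. At 12 days off against day 0, 1 was higher and 10 were lower, where 21.6% of all genes were called higher and 22.0% lower. The median was -1.11 (all genes 0.00), and -0.97 over the 14 genes above the floor of 3 counts over a group. Hp, haptoglobin, stood at 12.2 against 62.9 CPM and Ctsg, cathepsin G, at 52.5 against 223. Gfi1, a transcriptional repressor that acts in granulocyte development, stood at 180 against 388 CPM.

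The list of C/EBPβ and C/EBPδ inflammatory targets named 20 genes, of which 14 were measured. Of these 14, 8 rose and 4 fell at day 12 against day 0 (median 0.63), where 30.0% of all genes were called higher and 33.4% lower. At 12 days off against day 12, 10 fell and 1 rose (median -1.52), where 32.4% of all genes were called lower and 32.9% higher. Clec4e, a lectin receptor, went from 6.28 to 75.3 CPM at day 4 and stood at 29.6 at day 12 and 5.28 at 12 days off. Il1rn, the interleukin-1 receptor antagonist, was at 3.56, 17.5, 16.9 and 1.59 CPM at those times. The counts and medians of this list also include genes at low levels. The highest group mean was 3.76 CPM or less for Il6, Il1b, Ccl3, Arg1, Nos2, Cd14 and Tlr9. For the other genes of the list it ran from 6.52 to 303 CPM. In replicate A of 12 days off, 3 of the 14 had 0 counts.

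**Figure D4:**
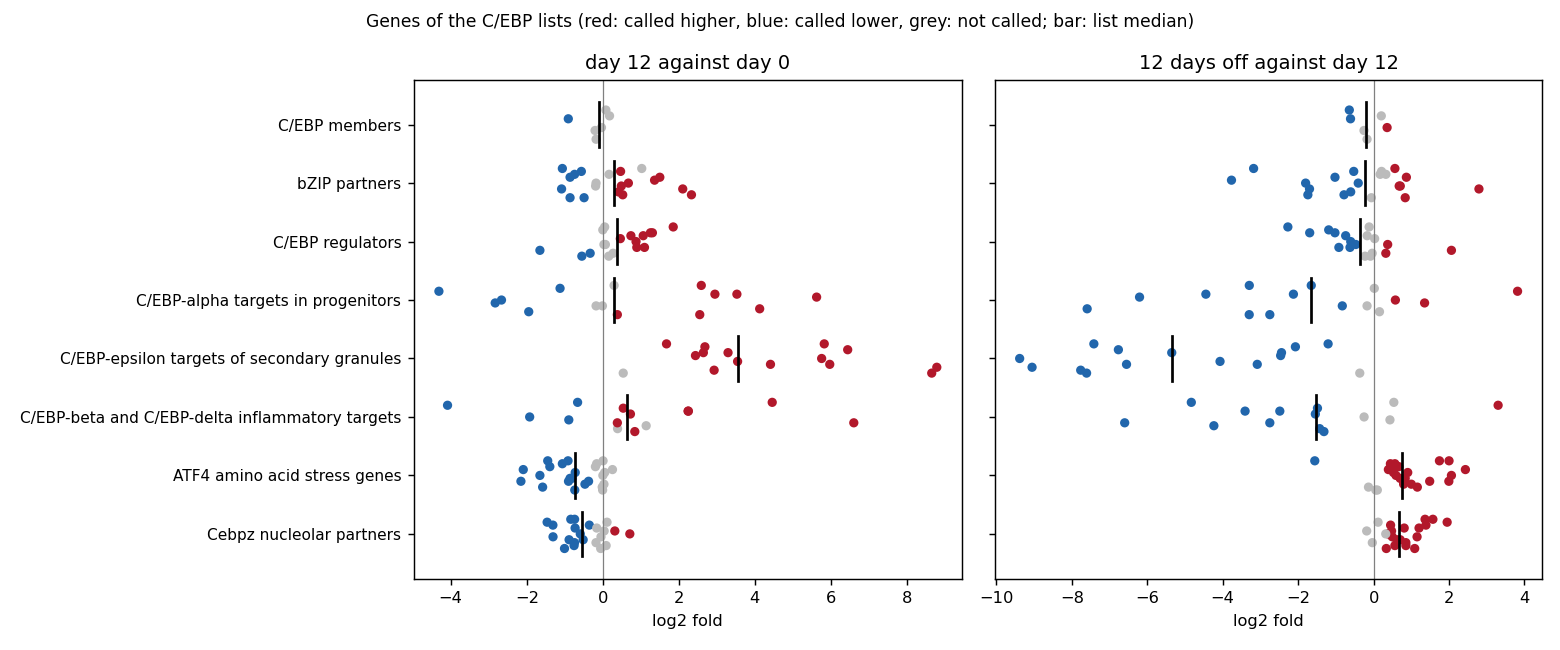
Log2 folds of single genes in the C/EBP lists, day 12 against day 0 and 12 days off against day 12, with a bar for each list's median. The 6 C/EBP genes lie between -0.91 and 0.36, while the C/EBPε targets have medians of 3.54 and -5.35.

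Among bZIP partners and regulators of the family, changes went both ways. Of 20 measured bZIP partners, 9 rose and 7 fell at day 12 against day 0 (median 0.29), where 30.0% of all genes were called higher and 33.4% lower. Fosl2, an AP-1 subunit, rose from 25.9 to 73.4 CPM and Atf4, the stress factor that pairs with C/EBPγ, fell from 438 to 241 CPM. At 12 days off against day 12, 6 rose and 10 fell (all genes 32.9% and 32.4%), with Jun, an AP-1 subunit, from 359 to 103 CPM and Fos, its partner, from 205 to 15.1 CPM. Of 18 measured regulators, 9 rose and 3 fell at day 12 (median 0.37), among them Stat3, which mediates cytokine signals, from 119 to 295 CPM and Cbfb, the partner of Runx1, from 146 to 304 CPM. Trib1, a pseudokinase that targets C/EBPα for degradation, stood at 60.7 CPM at day 0 and at day 12, 29.7 at 4 days off and 26.6 at 12 days off (log2 fold -1.19 against day 0, SE 0.14, edgeR adjusted p = 1.4e-05).

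The ATF4 amino acid genes, with which C/EBPγ is linked, fell on doxycycline and rose after it. Of 24 measured, 0 rose and 15 fell at day 12 against day 0 (median -0.73, all genes -0.07), where 30.0% of all genes were called higher and 33.4% lower. At 12 days off against day 12, 20 rose and 1 fell (median 0.75, all genes 0.00), where 32.9% of all genes were called higher and 32.4% lower. Psat1, a serine synthesis enzyme, went from 635 CPM at day 0 to 99.8 at day 4, 143 at day 12, 257 at 4 days off and 568 at 12 days off. Phgdh, the first enzyme of that pathway, followed with 78.1, 13.2, 18.3, 40.7 and 98.8 CPM. Over the same times the group means of Cebpg were 70.2, 80.4, 68.4, 89.9 and 87.6 CPM.

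The list set beside Cebpz held 22 measured genes, mostly ribosome assembly factors, with Mettl3 and Mettl14 among them. Binding of their products to that of Cebpz was not measured. Of the 22, 0 rose and 20 fell at day 4 against day 0 (median -1.13, all genes -0.05). Over all genes, 28.2% were called higher and 31.0% lower there. At day 12 against day 0, 2 rose and 13 fell (median -0.56). At 12 days off against day 12, 19 rose and 0 fell (median 0.66). The shares of all genes called higher and lower were 30.0% and 33.4% at day 12 against day 0. They were 32.9% and 32.4% at 12 days off against day 12. Noc4l, a ribosome assembly factor, fell from 203 to 51.8 CPM at day 4, and Gnl3, nucleostemin, from 156 to 29.5 CPM. Cebpz in the same comparison went from 113 to 95.6 CPM (log2 fold -0.24, SE 0.11, edgeR adjusted p = 0.066, and 0.049 with a replicate block).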

How the data were processed

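Per the file headers, the authors deposited 1 table for each of 16 RNA-seq libraries, with whole-number read counts and a gene length for 13652 Entrez genes. The genome mm10 and the tools featureCounts, limma and edgeR stand in the record per the submitters' processing notes, and the aligner and the use of strand are not given in the sources used here. Symbols and positions came from a RefSeq table of GRCm38.p6, which named 13216 genes. Total counts ran from 12962801 to 26509803, and counting error is only part of the error of any value.

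After TMM scaling, a single model holding 8 group means was tested with the quasi-likelihood method of edgeR 4.0.16 (limma 3.58.1, R 4.3.3). The Benjamini-Hochberg adjustment ran over all 13652 genes within each of 14 comparisons, and a gene was called at an adjusted p under 0.05. The filter on low counts (filterByExpr) removed 0 genes. Every deposited gene already exceeded 0.5 CPM in at least 3 libraries, so genes low in all groups are missing from the lists and from the shares over all genes. There were 8 residual degrees of freedom, and the common biological variation (BCV) was 10.9%. SE values divide each log2 fold by the root of its F statistic, and intervals are at 95%. Whether A and B were separate cultures is not given in the labels, so the spread behind each p-value could be technical only. The replicate letters pair no samples by the labels, so no block entered the fit. CPM uses TMM-scaled library sizes, and CPM per kb divides it by the deposited gene length.

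The members, gene lists and tests were chosen with earlier results of these data known. The text names every member and Spi1 in any comparison, up to 3 genes of each pathway list with the lowest adjusted p in a main comparison, and for each member the 3 genes averaging 5 CPM or more whose course was most similar, leaving out Gm, Rik and LOC symbols. Any other gene it names was chosen after its values were seen. Alternatives were RLE factors, library size alone, no filter, a minimum mean of 1 CPM, limma-voom, DESeq2 1.42.0, fitting only the 4 libraries of a comparison, a block for replicate, and leaving out each library in turn. On simulated counts with known folds the fitting code was tested first. List medians that include a gene with a group at 0 were also taken with that gene at a floor of 3 counts over the group, and moved only at 12 days off against day 0 among the pathway lists.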

Additional observations from a re-analysis of the deposited data

How the results depend on the processing

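No member's called value changed direction under any alternative run. Of 84 member results (6 genes in 14 comparisons), 27 were called and 10 of these were called under all 11 alternatives of their comparison that changed the fit (leaving out the filter gave the same fit, since it removed 0 genes), 7 for Cebpd, 2 for Cebpg and 1 for Cebpb. Of the 57 not called, 25 were called under at least 1 alternative. The number of members called was 0 at day 8 against day 0 with RLE factors, with a minimum mean of 1 CPM and with DESeq2, against 1. At day 12 against day 0 it was 2 with library size alone and 2 with the 4 libraries compared, against 1. At 4 days off against day 12 it was 1 with library size alone and 4 with the 4 libraries, against 2. The fit of the 4 libraries also gave 5 against 2 at 8 days off against day 12, 1 against 3 at 12 days off against day 12, and 1 against 4 at 12 days off against day 0. Day 12 against day 8 gave 1 with library size alone, 1 with the 4 libraries and 1 with DESeq2, against 0. The cause of these shifts was not tested.

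Leaving out single libraries gave 1 to 3 members at day 4 and 0 to 2 at day 8 against day 0, 1 to 2 at day 12 against day 0, 0 to 1 at 4 days off, 2 to 2 at 8 days off and 1 to 4 at 12 days off against day 12, and 2 to 4, 2 to 3 and 2 to 5 at 4, 8 and 12 days off against day 0. For the steps it gave 1 to 1 from day 4 to day 8, 0 to 0 from day 8 to day 12, 0 to 1 from 4 to 8 days off and 0 to 2 from 8 to 12 days off. The Cd11b-high comparison gave 0 to 0. With a replicate block, 27 of the 27 calls were kept and 3 were gained, Cebpz at day 4, which made 2 members in that comparison against 1, and Cebpa and Cebpe at 12 days off against day 0. The differences between A and B correlated by over 0.1 in 8 of 28 pairs of groups (from -0.091 to 0.264) and no label ties the letters together, so the pairing remains unknown. With 2 libraries a group, small differences between the members' groups were not detectable.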
